A study of Mus musculus with 6 samples.

Results

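Transcripts of myostatin, its relatives the activins, their receptors and the secreted proteins that hold them in check were measured in aging skeletal muscle. The genes were chosen by symbol for their place in this pathway: Mstn, Gdf11, Inhba, Inhbb, Fst, Fstl1, Fstl3, Acvr1b, Acvr2a and Acvr2b, 10 of the 21364 genes with a RefSeq symbol on the array. Every probe matched to one of them is reported, 2 for Acvr2a and 1 for each other gene, 11 probes in all. Total RNA came from the gastrocnemius, a mostly fast-twitch muscle of the calf. Male mice were 25 months old in the old group (3 samples) and 13 weeks old in the young group (3 samples). The study's title calls the old muscle atrophied by aging. The labels name no treatment and give neither strain nor genotype. They do not say that each sample came from a separate animal, so the p-values rest on a spread among samples that may be technical. Each sample was hybridised to its own single-colour Agilent array, and all 6 arrays lay on 1 slide and shared 1 scan. A value below is the log2 of a probe's processed intensity relative to the 75th percentile of its array, so a negative level means a spot dimmer than that percentile. Levels of different probes are not set against each other, because probes differ in brightness for reasons other than transcript number.

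Myostatin (Mstn) is a ligand of the TGF-beta superfamily that muscle fibres secrete and that restrains muscle growth, and animals that lack it are heavily muscled. Myostatin, the closely related GDF11 and the activins bind the type II receptors encoded by Acvr2a and Acvr2b, which then recruit a type I receptor such as the product of Acvr1b (ALK4) and pass the signal on through Smad2 and Smad3. Follistatin (Fst) and follistatin-like 3 (Fstl3) bind the ligands outside the cell and keep them from their receptors.

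In old muscle the mean level of Mstn was lower and the levels of both binding proteins that block it, Fst and Fstl3, were higher, each on all 3 old arrays relative to all 3 young arrays. The receptor genes Acvr1b and Acvr2b had lower means in old muscle with overlapping arrays, and the other members differed little relative to their spread. None of these differences passed the test across the whole array: 0 of the 11 probes had an adjusted p under 0.05 in limma's moderated test with Benjamini-Hochberg adjustment over 28010 probes, while 74 of all probes did (0.264%). Those 74 comprised 55 higher (0.196% of probes tested) and 19 lower (0.0678%) in old muscle. With arrays centred on their median, 38 were higher and 22 lower. At an unadjusted p under 0.05 there were 5 of 11 member probes, 2 higher and 3 lower, and 14.2% of all probes, 5.71% higher and 8.46% lower. Old and young values did not overlap for 3 of 11 member probes and for 21.7% of all probes, so the count of separated members lay near the background. A log2 difference of at least 1 in size was measured for 3 of 11 member probes and for 6.15% of all probes. The median difference was -0.27 over the member probes and -0.07 over all probes tested.

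All 11 member probes were well above background on all 6 arrays, as were 49.9% to 54.8% of the gene spots of an array, and no gene spot was saturated. The defining genes of muscle fibres Acta1, Ckm, Mb, Ttn and Des were well above background on every array, with adjusted p in limma's test between 0.598 and 0.968 for old against young. Old replicate 1 stood apart. Its negative controls averaged 61.3, where young arrays had 51.9 to 55.1, and its spike-in slope was 0.840, where young arrays had 0.925 to 0.941. It lay in the slide row that held the young arrays, while old replicates 2 and 3 lay in the other row with no young array. With the slide row as a block, a difference rests on old replicate 1 against the young arrays of its own row. Bulk RNA cannot tell fewer cells of a type from less RNA per cell.

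The promoters of Mstn and Fstl3 are shown first, as the members with separated ages that have an entry in the RefSeq promoter table of build GRCm38.p6, where 9 of the 10 members were matched. Each run is the 250 bases before the annotated start, 5′ to 3′, and capitals mark E-boxes (CANNTG), the motif that myogenic factors such as MyoD and myogenin bind. The Mstn run is chr1:53061390-53061639 on the + strand and the Fstl3 run is chr10:79777024-79777273 on the + strand.
Mstn: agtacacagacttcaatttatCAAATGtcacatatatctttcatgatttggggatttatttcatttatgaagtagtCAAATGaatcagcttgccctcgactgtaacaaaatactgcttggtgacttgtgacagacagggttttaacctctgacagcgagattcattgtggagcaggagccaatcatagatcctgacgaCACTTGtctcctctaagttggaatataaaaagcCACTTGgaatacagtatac
Fstl3: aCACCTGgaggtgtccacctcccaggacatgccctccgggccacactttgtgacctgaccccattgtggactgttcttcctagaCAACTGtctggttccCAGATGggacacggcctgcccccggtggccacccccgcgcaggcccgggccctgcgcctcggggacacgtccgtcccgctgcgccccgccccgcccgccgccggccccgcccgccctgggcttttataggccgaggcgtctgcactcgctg
The Mstn promoter held 4 E-boxes, beginning 229, 174, 52 and 19 bases before the start, and the Fstl3 promoter 3, beginning 249, 166 and 151 bases before it. Of all 32851 promoter windows of this length, 66.2% held at least 1 E-box, a share that does not say how usual 3 or 4 are. Among the other matched members Gdf11 and Acvr1b held 1 each and the rest none. The Mstn and Fstl3 promoters also each held a TATAAA on 1 of the strands, 29 bases before the start. That motif was present in 12.4% of windows on either strand, and in Gdf11 and Inhba at other positions. The short Smad-binding letters CAGAC occurred 2 times on either strand in each of the Mstn and Fstl3 promoters. They occurred at least once in 42.2% of windows, and 1 time each in Acvr2a and Acvr2b. In the Fstl3 promoter 1 CAGAC shared a base with an E-box, and in the Mstn promoter no motif overlapped another. These matches describe letters only, and no binding was measured.

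Among the ligands, Mstn (probe A_51_P384901) had levels of 2.92, 2.75 and 2.18 in old replicates 1, 2 and 3, against 3.87, 3.57 and 4.04 in young replicates 1, 2 and 3. The old arrays all lay below the young ones, with a gap of 0.66 between the highest old and the lowest young level, and old replicate 3 was the lowest. As processed intensities these were 2765, 2278 and 1447 in old muscle and 5156, 3577 and 4008 in young muscle. The means were 2.61 ± 0.39 in old and 3.83 ± 0.24 in young muscle (SD, n = 3 each), a log2 difference of -1.22 ± 0.25 (SE, 95% confidence interval -1.80 to -0.63), or 2.32-fold lower. Limma's adjusted p was 0.144, and 1.26% of all probes had an equal or lower p. Old replicate 1, set against the young arrays of its own slide row, gave -0.91 (adjusted p = 0.386 with the row as a block in limma), and without that array the difference was -1.37 (adjusted p = 0.0849).

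Gdf11 (A_52_P686760) encodes the ligand most like myostatin and was a dim probe, with processed intensities from 28.5 to 56.5. Its levels were -3.68, -2.70 and -2.63 in old replicates 1 to 3, against -2.64, -3.17 and -2.86 in young replicates 1 to 3. Old replicate 1 was the lowest of all 6 arrays, old replicate 2 lay within the young range and old replicate 3 just above it. The log2 difference was -0.11 ± 0.32 (95% confidence interval -0.87 to 0.65, limma's adjusted p = 0.890), and it was 0.23 without old replicate 1. Leaving out old replicate 2 gave -0.27, old replicate 3 -0.30, young replicate 1 0.013 and young replicate 2 -0.25. Old replicate 1 alone gave -0.79 against the young arrays of its slide row.

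Inhba (A_51_P239750) encodes the beta A chain, which forms activin A as a dimer. Its levels were -1.39, -1.83 and -1.93 in old muscle and -1.76, -1.30 and -1.48 in young muscle. Old replicates 2 and 3 lay below all young arrays while old replicate 1 lay inside their range, and the log2 difference of -0.21 ± 0.22 (95% confidence interval -0.72 to 0.31, limma's adjusted p = 0.688) was smaller than the range of 0.46 within the young arrays. Leaving out old replicate 1 gave -0.37 and leaving out young replicate 1 gave -0.33. Leaving out old replicate 3 gave -0.098, and young replicate 2, -0.099. Old replicate 1 gave 0.12 against the young arrays of its slide row, the opposite direction.

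Inhbb (A_55_P2096422), which encodes the beta B chain of activin B, varied most within the old group. Its levels were -0.36, -0.75 and -2.44 in old replicates 1 to 3, against -1.29, -0.61 and -1.29 in young replicates 1 to 3. Old replicate 1 was the highest of the 6 arrays and old replicate 3 the lowest, a range of 2.09 within old and 0.68 within young muscle. The log2 difference was -0.12 with a 95% confidence interval from -1.40 to 1.16 (limma's adjusted p = 0.933). A difference of more than 2-fold in either direction lies inside that interval. The sign turned on single arrays, at -0.53 without old replicate 1, 0.51 without old replicate 3 and 0.11 without young replicate 2. Without old replicate 2, young replicate 1 or young replicate 3 it was -0.33, -0.23 and -0.23. Old replicate 1 gave 0.71 against the young arrays of its slide row.

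Of the secreted antagonists, Fst (A_55_P2394308) had the lowest p of all members. Follistatin binds activins and myostatin with high affinity, and its excess enlarges muscle. Its levels were 1.08, 1.17 and 1.60 in old replicates 1 to 3, against 0.09, 0.04 and 0.33 in young replicates 1 to 3. Every old array lay above every young one, with a gap of 0.76, and old replicate 3, which had the lowest Mstn, had the highest Fst. The means were 1.29 ± 0.28 in old and 0.15 ± 0.15 in young muscle (SD, n = 3 each), a log2 difference of 1.14 ± 0.20 (95% confidence interval 0.66 to 1.61), or 2.20-fold higher. Limma's adjusted p was 0.110, with 0.778% of all probes at an equal or lower p. With array weights it was 0.0413 (log2 difference 1.24), the only alternative in which a member passed. In that fit 233 of 28010 probes passed, beside 74 as reported. The lowest weights were those of old replicate 1 (0.47) and young replicate 3 (0.52). Old replicate 1 gave 0.93 against the young arrays of its slide row.

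Fstl3 (A_55_P2143522) had levels of 0.12, -0.49 and -0.24 in old muscle and -0.87, -0.67 and -1.29 in young muscle. The old arrays again lay above the young ones, but by a gap of 0.18 that was smaller than the range within either age (0.61 in old, 0.62 in young). The log2 difference was 0.74 ± 0.24 (95% confidence interval 0.16 to 1.32), 1.67-fold higher, with an adjusted p of 0.270 in limma's test. Here old replicate 1 was the highest array, and the difference was 0.58 without it (adjusted p = 0.295 in limma). Set against the young arrays of its slide row, that array gave 1.06.

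Fstl1 (A_55_P2143517) shares a follistatin-type domain with these proteins and is a secreted glycoprotein made mainly by mesenchymal cells. Its levels were 2.86, 3.13 and 3.35 in old muscle and 3.20, 3.04 and 3.90 in young muscle. The ages overlapped, and the log2 difference was -0.27 ± 0.27 (95% confidence interval -0.92 to 0.37, limma's adjusted p = 0.669). It was -0.14 without old replicate 1, -0.44 without young replicate 2 and -0.011 without young replicate 3, and old replicate 1 gave -0.53 against the young arrays of its slide row. With array weights it was -0.035.

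**Figure D1:**
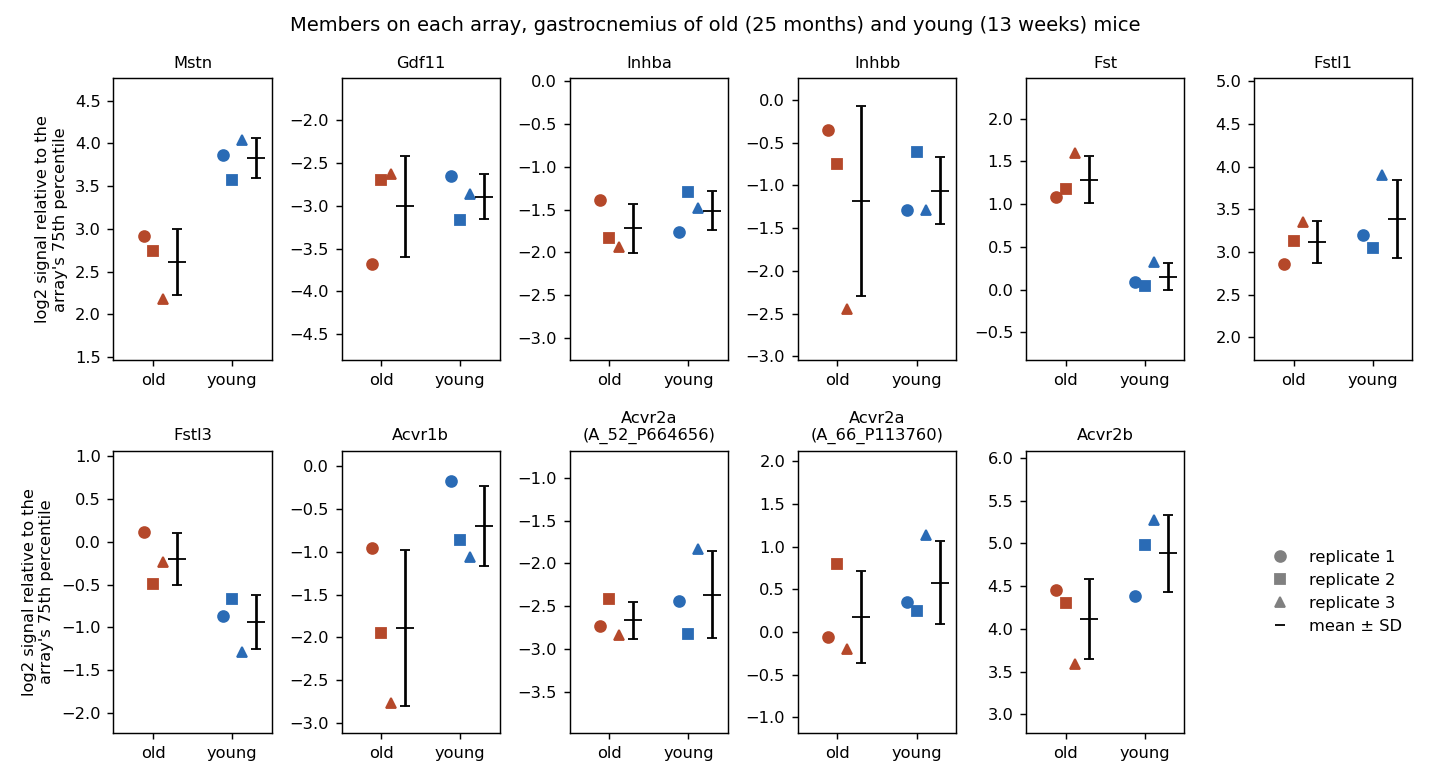
Level of each member probe on each array, as log2 signal relative to the array's 75th percentile (vertical axes of equal span, 1 panel per probe). Points are single arrays of old (left) and young (right) muscle, and bars the mean ± SD of 3 arrays. Marker shape gives the replicate number, which is not used as a pairing. Mstn, Fst and Fstl3 are the panels whose ages do not overlap, and Inhbb and Acvr1b show the widest spread within old muscle.

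Among the receptors, Acvr1b (A_55_P2123957), the type I receptor ALK4, had levels of -0.95, -1.95 and -2.77 in old replicates 1 to 3, against -0.17, -0.86 and -1.06 in young replicates 1 to 3. Old replicates 2 and 3 lay below all young arrays, while old replicate 1 lay inside their range. The log2 difference was -1.19 ± 0.47 (95% confidence interval -2.32 to -0.07), 2.29-fold lower, with an adjusted p of 0.334 in limma's test. Its size rested on single arrays: it was -0.76 without old replicate 3, and old replicate 1 gave only -0.26 against the young arrays of its slide row.

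Acvr2b (A_55_P2012815), a type II receptor that binds myostatin with high affinity, had levels of 4.46, 4.30 and 3.59 in old replicates 1 to 3, against 4.39, 4.98 and 5.28 in young replicates 1 to 3. The ages overlapped by 1 array, as young replicate 1 lay just below old replicate 1. The log2 difference was -0.77 ± 0.32 (95% confidence interval -1.53 to -0.01, 1.70-fold lower, limma's adjusted p = 0.351). It was -0.50 without old replicate 3 and -0.43 for old replicate 1 within its slide row.

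The other type II receptor gene, Acvr2a, was read by 2 probes. The brighter, A_66_P113760, had levels of -0.06, 0.79 and -0.20 in old muscle and 0.35, 0.25 and 1.14 in young muscle. The dimmer, A_52_P664656, had -2.74, -2.42 and -2.84 in old and -2.44, -2.83 and -1.83 in young muscle. By both probes old replicate 2 was the highest of its age and young replicate 3 the highest of all arrays, and the ages overlapped. The log2 differences were -0.40 ± 0.35 (95% confidence interval -1.24 to 0.43) and -0.30 ± 0.28 (95% confidence interval -0.97 to 0.37), with adjusted p of 0.622 and 0.645 in limma's test. By the brighter probe the difference was -0.71 without old replicate 2, -0.21 without old replicate 3 and -0.12 without young replicate 3, and old replicate 1 gave -0.64 against the young arrays of its slide row. By the dimmer probe it was -0.53 without young replicate 2 and -0.033 without young replicate 3.

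**Figure D2:**
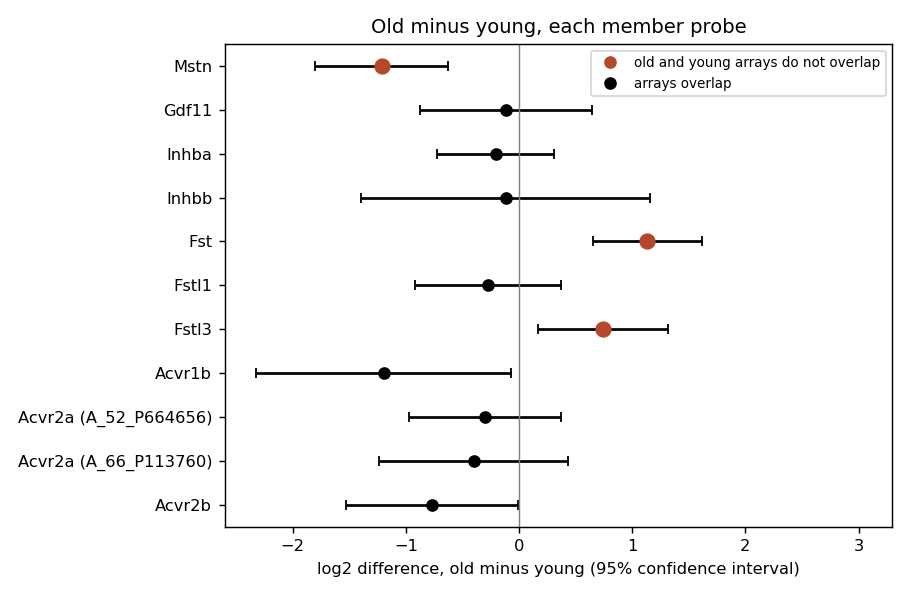
Log2 difference of each member probe, old minus young, with its 95% confidence interval from limma (horizontal axis). Orange points mark the 3 probes whose old and young arrays do not overlap (Mstn at -1.22, Fst at 1.14 and Fstl3 at 0.74), and 5 of the 11 intervals lie wholly on 1 side of 0.

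Single arrays ranked the members differently. Of the 11 probes, 7 were lowest within the old group on old replicate 3, where 34.5% of all probes had their lowest old value. These were Mstn, Inhba, Inhbb, Acvr1b, Acvr2b and both Acvr2a probes, so every receptor probe was among them. The same array held the highest old level of Fst, Fstl1 and Gdf11. Over all 6 arrays, with each gene centred on its own mean, Acvr2b had the profile most like Mstn among the members. Its root mean square difference was 0.35, and Fst was the least like Mstn, at 1.24. The measure includes the difference between ages, so a gene higher in old muscle, as Fst was, is bound to lie far from Mstn. Ranked by that measure among 13160 named genes with a probe tested, Acvr2b was at position 351.

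The 5 genes closest to Mstn by the same measure were Plpp7 (0.11), Rcsd1 (0.14), Stxbp6 (0.15), Mtus1 (0.15) and Slc6a20a, whose distance is not interpretable. Slc6a20a encodes a proline transporter and fell short of well above background on all 3 old arrays, so its old levels give no more than a bound and its likeness to Mstn was not measured. Plpp7, a member of the phospholipid phosphatase family, averaged 4.92 ± 0.36 in old and 6.09 ± 0.32 in young muscle (SD, n = 3 each). In limma's test its difference of -1.16 ± 0.26 had an adjusted p of 0.162. Rcsd1, which encodes a protein that binds the actin-capping protein, had a difference of -0.997 ± 0.26, Stxbp6, which encodes a syntaxin-binding protein, -1.24 ± 0.24 and Mtus1, which encodes a microtubule-associated protein, -1.08 ± 0.26. With 6 arrays and 13160 genes compared, close profiles are a description of these arrays. Genes close to Mstn are bound to share its lower old level, so their differences are no separate result.

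Other genes of the pathway were taken from a list of 46 ligands, modulators, proteases, receptors, intracellular carriers and regulators, and response genes. A probe was tested for 41 of them (59 probes). Of these probes 0 passed limma's test at an adjusted p under 0.05, and 10 had an unadjusted p under 0.05, of which 1 was higher in old muscle and 9 were lower. Over all probes the shares were 14.2%, of which 5.71% higher and 8.46% lower. The ages did not overlap for 15 of the 59, 1 higher and 14 lower, beside 7.40% higher and 14.3% lower over all probes. The median log2 difference was -0.13, beside -0.07 over all probes.

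The 4 genes of the list with the lowest p were Smad7, Ccn2, Skil and Bmp1. Smad7, an inhibitory Smad induced by the pathway as feedback, had levels of -1.19, -1.28 and -1.69 in old muscle and -0.40, -0.55 and -0.84 in young muscle. The ages were separated, with a log2 difference of -0.79 ± 0.21 and an adjusted p of 0.211 in limma's test. Skil, a corepressor of the Smads, had 0.70, 1.05 and 0.92 in old and 1.72, 1.61 and 1.24 in young muscle by its brighter probe. Its difference was -0.63 ± 0.20 (limma's adjusted p = 0.255), and -0.36 ± 0.24 by its dimmer probe.

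Ccn2, a matrix-associated protein induced by TGF-beta, had levels of 3.25, 1.55 and 1.01 in old replicates 1 to 3, against 3.98, 4.12 and 3.34 in young replicates 1 to 3. Old replicate 1 lay just below the young range and the other old arrays far below it, giving a difference of -1.87 ± 0.57 (limma's adjusted p = 0.243). Without old replicate 1 the difference was -2.53 ± 0.31 and passed (limma's adjusted p = 0.0351), the only alternative in which a gene of the list did. In that fit 247 of 28009 probes passed. Bmp1, a metalloprotease that frees myostatin from its propeptide, had lower means in old muscle by each of its 3 probes, with no overlap of ages, at -0.66 ± 0.21, -0.45 ± 0.16 and -0.60 ± 0.24 (limma's adjusted p from 0.265 to 0.346).

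**Figure D3:**
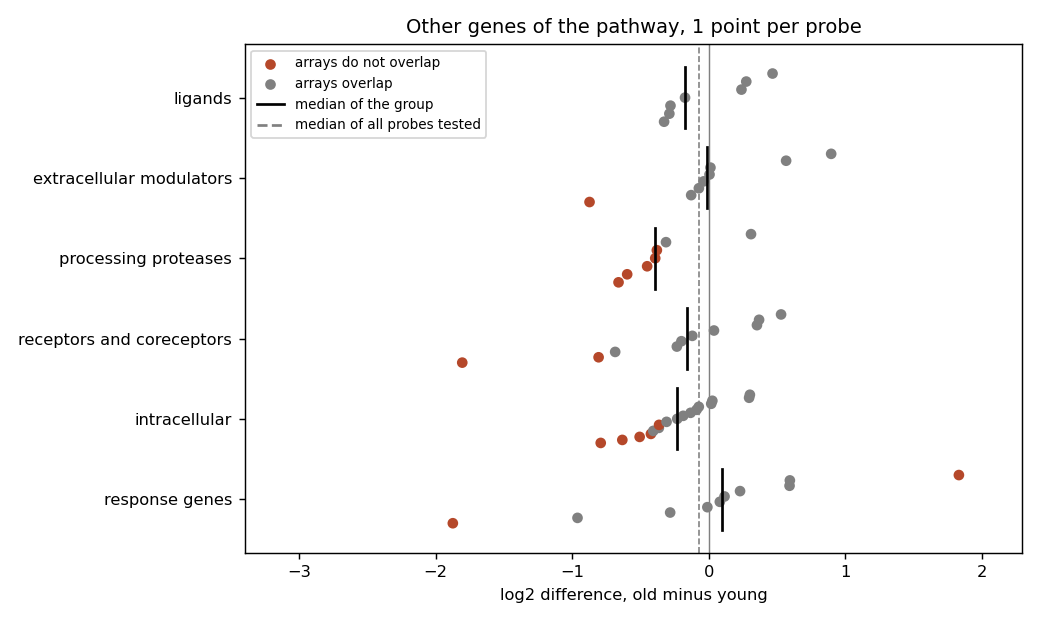
Log2 difference, old minus young, of the 59 tested probes of the pathway list (horizontal axis), by role of the gene. Each point is a probe, orange where the ages do not overlap, the black bar is the median of the group and the dashed line the median of all probes tested (-0.07). The medians run from -0.39 for the processing proteases to 0.10 for the response genes.

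By role, the 7 probes of the processing proteases had a median of -0.39, with 5 of them separated, all lower in old muscle, beside 14.3% over all probes. Those 5 came from 3 genes, as 3 of them read Bmp1 and the others Tll1 and Furin, so they are not independent. The 17 probes of Smads and other intracellular genes had a median of -0.23, with 5 separated and lower, beside 14.3% over all probes. These read Smad7, Skil, Ski, Smurf1 and Smad4, while a further probe each of Skil and Smad4 overlapped. Smad2, at -0.09, and both Smad3 probes, at 0.30, were not separated. Other ligands, among them the 3 TGF-beta genes, had a median of -0.17 over 7 probes with 0 separated. Extracellular modulators had a median of -0.01 over 8 probes, with 1 separated and lower, Dcn (-0.87). The receptors and coreceptors had a median of -0.16 over 10 probes, with 2 separated and lower. These read Bmpr2 (-1.81 ± 0.58) and Acvr1c (-0.81 ± 0.28), and a further Acvr1c probe overlapped. Response genes had a median of 0.10 over 10 probes, with 1 separated and higher, Cdkn1a (1.83 ± 0.60), and 1 lower, Ccn2. Limma's adjusted p for these separated probes ran from 0.243 to 0.333. Over all probes 7.40% were separated and higher and 14.3% separated and lower.

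Several lists of cell and fibre markers differed between the ages beside the members, given here as the mean over a list's genes after each gene was centred on its own mean over the arrays. Markers of denervated fibres (8 of 8 measured) had 0.66, 0.93 and 1.24 in old replicates 1 to 3, against -1.01, -0.68 and -1.14 in young replicates 1 to 3. The highest value was on old replicate 3, where Fst was highest. The lowest was on young replicate 3, which had the highest Fst of the young arrays. Of that list Chrng, the fetal acetylcholine receptor subunit, did not reach well above background in young muscle. Macrophage markers (9 of 9) had 0.35, 0.14 and 0.44 in old and -0.32, -0.38 and -0.22 in young muscle. Among them Csf1r had a log2 difference of -0.07 with overlapping ages. Of the 12 tested probes of that list, 9 were higher and 3 lower in old muscle. Neutrophil markers (4 of 6) ranged from 1.32 to 1.93 in old and from -2.11 to -1.18 in young muscle. Of these S100a8 and S100a9 passed limma's test, with log2 differences of 4.79 and 4.68 (adjusted p = 0.00616 for each). Camp ran the other way, with a log2 difference of -0.42 and separated ages, and Retnlg did not reach well above background in young muscle.

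Fast fibre markers (9 of 9) had -0.40, -0.04 and -0.06 in old and 0.02, 0.16 and 0.30 in young muscle. The value of old replicate 3 lacks Tnni2, which had no usable spot there and whose difference over the other arrays was -1.44. The list's values therefore do not cover the same genes on every array, and their separation of ages rests on Tnni2. The other genes of the list had differences from -0.35 (Myh1) to -0.15 (Actn3), with only Tnnt3 (-0.29) and Atp2a1 (-0.17) separated. This list had the lowest value on old replicate 1, where Mstn was highest of the old arrays. Among young arrays it was highest on replicate 3, where Mstn was highest too. Slow fibre markers (7 of 7) had -0.02, -0.12 and -0.69 in old and 0.08, 0.48 and 0.27 in young muscle. The lowest value was on old replicate 3, where Mstn, Acvr1b and Acvr2b were lowest. Among young arrays the slow fibre list was highest on replicate 2, where Mstn was lowest. It was lowest there on replicate 1, where Acvr2b was lowest and Acvr1b highest. Tendon markers (7 of 7) ranged from -0.99 to -0.46 in old and from 0.40 to 0.87 in young muscle. Of these Kera passed limma's test, with a log2 difference of -3.20 (adjusted p = 0.0268). Scx ran the other way, with a log2 difference of 1.33 and separated ages. Mkx was well above background on 1 old array and Tnmd on 2. Red cell markers (3 of 3) had -0.09, -0.45 and -1.26 in old and 0.74, 1.04 and 0.02 in young muscle. They were lowest on old replicate 3, as Mstn was, but among young arrays lowest on replicate 3, where Mstn was highest. Schwann cell markers (6 of 6) had -0.41, -0.07 and -0.16 in old and 0.01, 0.22 and 0.42 in young muscle. Among them Prx passed limma's test, with a log2 difference of -1.31 and an adjusted p of 0.0449, while Mbp had a difference of 1.31 (adjusted p = 0.0595). Fibroblast and fibro-adipogenic markers (8 of 8) ranged from -0.76 to 0.22 in old and from 0.00 to 0.37 in young muscle. Here the ages overlapped. Pericyte and smooth muscle markers (5 of 5) had -0.02, -0.27 and -0.24 in old and 0.19, 0.14 and 0.20 in young muscle. Of these Acta2 ran the other way, with overlapping ages. Satellite cell markers (4 of 5) had 0.00, -0.16 and -0.22 in old and 0.08, 0.05 and 0.25 in young muscle. Among them Calcr, at -1.21, was well above background on 1 old array. Cdh15 and Vcam1 ran the other way with overlapping ages. The part of these cell and fibre differences in the levels of Mstn, Fst, Fstl3 and the receptors was not tested.

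**Figure D4:**
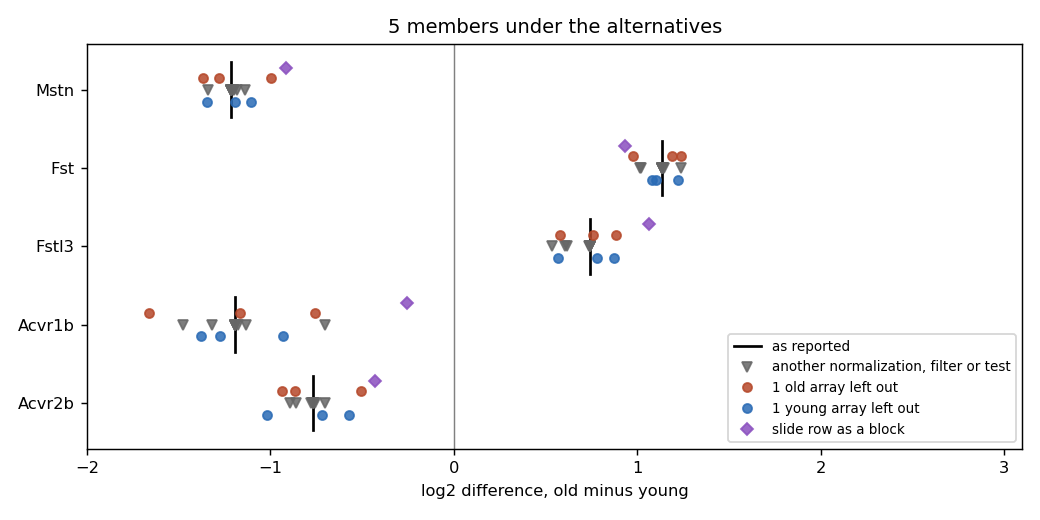
Log2 difference, old minus young, of 5 members (horizontal axis) as reported (black bars) and under the alternative normalizations, filters and tests, without single arrays and with the slide row as a block. Mstn, Acvr1b and Acvr2b stay below 0 and Fst and Fstl3 above 0 in every fit shown, and Acvr1b has the widest spread, from -1.66 to -0.26.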

How the data were processed

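Gene expression of 3 old and 3 young gastrocnemius samples was measured on single-colour Agilent arrays. The authors deposited a processed intensity for each spot, with background removed. Per the file headers it was made in Agilent Feature Extraction 11.0.1.1 with protocol GE1_1100_Jul11, while the submitters' processing notes name version 9.5. The authors' value table, an intensity per spot, equalled the processed intensity divided by its 75th percentile, times 100 and rounded, for all 62976 values of each array, so it is linear, uncentred and runs as the signal does. Its column medians were 9, 7 and 6 for old replicates 1 to 3 and 6, 7 and 7 for young replicates 1 to 3.

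Control spots and outlier spots (161 to 212 per array) were left out, log2 values of the deposited intensities were centred on the array's 75th percentile over gene spots, and spots of a probe were averaged. Of 55681 probes, 28325 matched 1 RefSeq symbol by accession. Each member probe has 1 spot, so there is no repeat within an array, and the number of arrays limits the precision. A probe had to be well above background on 3 or more of 6 arrays, and the 28010 that were entered the test with limma 3.58.1 in R 4.3.3, two-sided, adjusted over all of them. With 3 arrays per age the smallest two-sided p of an exact permutation test is 0.1, so that test is not used. The members, lists, alternatives and naming rule were chosen with earlier results of these data known. That rule names every member probe, the 4 pathway genes with the lowest p and the 5 genes most like Mstn.

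The test was tested on simulated data for old against young with 28000 probes. It recovered 22% of probes changed by a log2 of 1, 62% at 2 and 84% at 3, with 7 false calls among the unchanged probes. The simulated noise was normal and independent between probes. Deviations shared across a whole array were not simulated, so these figures do not cover them. Tables and figures used Python 3.11.15, pandas 2.3.3 and matplotlib 3.10.9. Alternatives were other normalizations, background correction (normexp on the median signal, offset 50, with quantile normalization), the authors' values, filters on dim probes, 1 value per gene, other limma settings, blocks and leaving out each array.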

Additional observations from a re-analysis of the deposited data

How the results depend on the processing

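Of 208 values of the 11 member probes under 19 alternatives, 200 kept their direction and 1 passed the threshold. That was Fst with array weights, where 1 member probe and 233 of all 28010 probes were called. Mstn, Fst, Fstl3, Fstl1, Acvr1b, Acvr2b and both Acvr2a probes kept their direction throughout. The 8 reversals were in members with differences near 0: Gdf11 at 0.11 with array weights, 0.23 without old replicate 1 and 0.01 without young replicate 1, Inhba at 0.12 with slide row blocked, and Inhbb at 0.029 with normexp background correction and quantile normalization together, 0.71 with slide row blocked, 0.51 without old replicate 3 and 0.11 without young replicate 2. The cause was not tested. With single arrays left out, Gdf11 ranged from -0.30 to 0.23 and Inhbb from -0.53 to 0.51. Over all alternatives Mstn ranged from -1.37 to -0.91 and Fst from 0.93 to 1.24. The same pair of choices gave -0.70 for Acvr1b.

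The count of all probes called was 74 as reported, 11 with no filter on dim probes (55681 tested), 43 when every array had to be well above background, 233 with array weights and 35 with slide row blocked. Of those 35, 17 were higher and 18 lower in old muscle, and only 12 were among the 74. Left out in turn, single arrays gave 2 to 247, the highest without old replicate 1 and the lowest without old replicate 3, and 0 to 1 for the pathway list. With the replicate number as a block 9 probes and 0 members passed. Same-numbered arrays had Pearson correlations of their deviations of -0.06, -0.28 and 0.02, and differently numbered ones from -0.21 to 0.36. From so few arrays these values cannot decide whether the numbers pair samples. Normexp with quantile normalization called 36 higher and 22 lower, and quantile normalization alone 46 and 20. Median centring moved the median of all probes to -0.19 and gave -1.34 for Mstn and 1.01 for Fst beside it. All member probes were well above background on every array.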
